A study of Brassica napus with 9 samples.

Results

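A group of 73 genes was described whose transcript level, in pods sampled 45 days after flowering (DAF), was at least 2-fold higher in CpFatB4 plants and at least 2-fold lower in CpFatB5 plants than in the control cultivar. They were chosen by their own values from the 91830 genes of the deposited table. For each gene the log2 ratio of library 43 to library C3 had to be 1 or more, the log2 ratio of library 53 to library C3 had to be -1 or less, and the mean normalized count of each pair had to reach 1000. Of the 5571 genes with enough counts in both pairs, 79 met both folds, which is 1.42%, and the 6 of them that the study names in its text or figures were left out. The differences at 45 DAF are therefore a description of the choice and carry no test, while the libraries of 8 and 25 DAF took no part in it.

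The samples were whole pods of Brassica napus, pod wall and developing seeds together, from the cultivar Youngsan and from homozygous plants that carried CpFatB4 or CpFatB5, acyl-ACP thioesterase genes of Cuphea paucipetala placed behind the seed-specific Napin promoter. Pods were collected at 8, 25 and 45 DAF, which the sample descriptions call days after fertilization. RNA of 3 preparations was pooled for each library, so every line and stage has 1 library. The libraries are C1, C2 and C3 for Youngsan, 41, 42 and 43 for CpFatB4, and 51, 52 and 53 for CpFatB5, in order of stage. In whole pods, fewer seed cells and less RNA per seed cell cannot be told apart.

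Rapeseed embryos store nitrogen in 2 main classes of seed protein. Cruciferins are globulins of the cupin fold, and napins are small albumins, and both accumulate in protein storage vacuoles while the seed fills. The same cells make storage oil, whose very long chain fatty acids are lengthened by the ketoacyl-CoA synthase known in Arabidopsis as FAE1 or KCS18. Genes of these classes are silent in young pods, are switched on during seed filling and are turned down as the seed dries.

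Descriptions were at hand for 12 of the 73 genes, through the Arabidopsis gene that the study's supplementary tables pair with each of them. They were 2 cruciferins, 1 cupin like the cruciferin gene AT5G44120, 3 seed storage albumins, 4 other RmlC-like cupins and 2 copies of KCS18. Another 8 genes had only broad Gene Ontology terms in the study's table, and 53 had neither, so that no name or role is given for them. The identifiers placed 37 genes on the A subgenome and 36 on the C subgenome. No gene sequences of this annotation were used here.

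Many of the 73 genes shared nearly the same counts. Genes were joined, in chains, whose normalized counts differed by less than 0.25 on the log2 scale in every library where either reached 100. So 51 genes fell into 22 sets and 22 stood alone, which left 44 profiles. Of the 22 sets 20 were pairs, and 21 combined genes of both subgenomes. Within a set the largest difference in a library was 0.58, in a set of 8 genes. The pair BnaA09g50780D and BnaC08g43570D differed by at most 0.01 on the log2 scale, with 22898 and 22891 normalized counts in C3. How reads that match several coding sequences were counted is not given in the sources used here, so the members of a set are described together and not as separate evidence. In every library the counts summed over both deposited columns exceeded the clean reads that the study reports. Whether reads were counted more than once was not tested.

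Summed over both deposited columns, library 53 had the fewest counts with 38677752 and C2 the most with 88259440. The other libraries of 45 DAF had 69569296 in C3 and 65858614 in 43. These totals are counts assigned to genes and do not measure sequencing depth. The clean reads that the study reports differ less between the libraries than these totals do. Why the total of library 53 was so low was not tested. The 73 genes took 0.494% of all counts in C1, 0.413% in 41 and 0.393% in 51. At 25 DAF they took 7.08% in C2, 8.26% in 42 and 4.98% in 52. At 45 DAF the shares were 4.49% in C3, 24.9% in 43 (Wilson 95% interval 24.9% to 25%) and 1.91% in 53 (1.9% to 1.91%). The interval covers counting error only. The most abundant genes held much of it: in 43 the 12 described genes took 10.6% of all counts, and cruciferin 3, BnaC01g09900D, alone 4.64%. The share of the 73 genes was thus similar in the 3 lines at 8 DAF and in the order CpFatB4, Youngsan, CpFatB5 at 25 DAF. At 45 DAF, where the choice fixed the same order, the shares were much further apart. With so large a share in 43, the scaling of the libraries bears on every value at 45 DAF. Scaling by the total count left 44 of the 73 genes past both folds, and size factors taken only from abundant genes (mean raw count of 1000 or more) left 29, while all 73 kept their direction in both lines under both scalings.

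**Figure D1:**
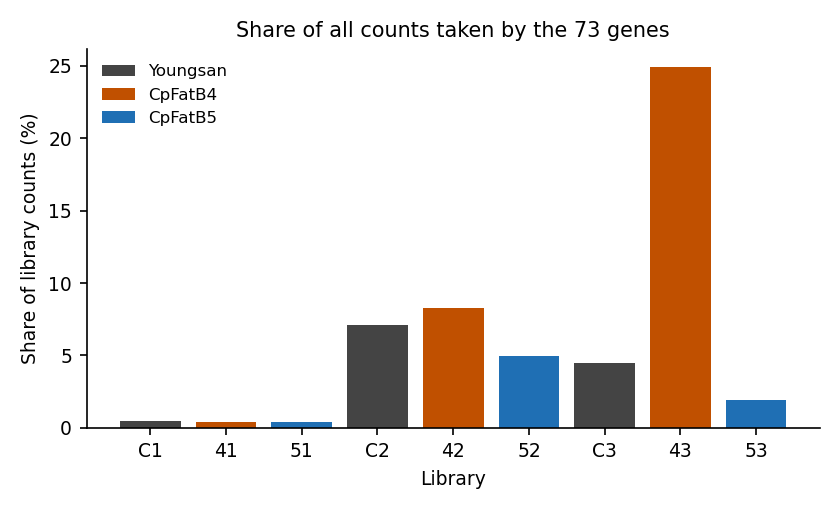
Share of all deposited counts of each library (vertical axis, percent) taken by the 73 genes, by library and line. Library 43 stands at 24.9%, against 4.49% in C3 and 1.91% in 53, and the 3 libraries of 8 DAF lie between 0.393% and 0.494%.

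The most abundant genes of the group at 45 DAF encoded 12S storage globulins. BnaC01g09900D, cruciferin 3, had 360329 normalized counts in C3, 2537564 in 43 and 179026 in 53, that is 7.04-fold more in CpFatB4 and 2.01-fold less in CpFatB5 than in Youngsan. BnaA08g13680D, the cupin like AT5G44120, had 226108 in C3, 1464672 in 43 and 106536 in 53. BnaA10g02240D, cruciferin 2, had 117698 in C3, 982394 in 43 and 19985 in 53, a 49.2-fold difference between the transgenic lines. Cruciferin 2 was the gene with the lowest ratio of CpFatB5 to Youngsan, a log2 fold change of -2.56, while cruciferin 3 lay at the edge of the choice with -1.01.

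A pair of albumins had the largest distance between the transgenic lines. BnaC07g40770D and BnaA03g48490D, a pair like the Arabidopsis seed storage albumin 3 gene AT4G27160, had 12005 and 11336 normalized counts in C3, 236468 and 234502 in 43, and 3156 and 2965 in 53. These were log2 fold changes of 4.30 and 4.37 in CpFatB4 and of -1.93 and -1.94 in CpFatB5, and the 2 lines differed 74.9-fold and 79.1-fold. BnaA03g48460D, another albumin like AT4G27160, had 2703 in C3, 43306 in 43 and 1058 in 53. Its 2 deposited columns per library did not match, with a log2 ratio of the first to the second column of -0.59 in C2, -0.50 in 42, -0.52 in 52, -0.66 in C3, -0.39 in 43 and -0.47 in 53.

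A set of 8 genes without a description was nearly as abundant as the globulins. It held BnaC01g19300D, BnaC01g19310D, BnaC01g19330D, BnaA01g16180D, BnaA01g16200D, BnaA01g16220D, BnaA03g06940D and BnaC03g08840D, whose levels ran from 67082 to 86338 normalized counts in C3, from 734127 to 875327 in 43 and from 28319 to 37319 in 53. Their log2 fold changes lay between 3.34 and 3.47 in CpFatB4 and between -1.29 and -1.21 in CpFatB5. The identifier BnaC01g19320D, which falls between 2 of them in number, is 1 of the 6 genes left out because the study names it, as a Napin gene, and it had 81288, 883783 and 34056. BnaA01g16230D, the next number to BnaA01g16220D, had 31417 in C3, 404544 in 43 and 12617 in 53. BnaA03g06940D, BnaA01g16230D and the albumin BnaC07g40770D shared the Gene Ontology term macromolecule localization in the study's table.

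The other RmlC-like cupins differed less between the lines. BnaC03g61870D and BnaA08g15380D, a pair like AT4G36700, had 38805 and 34829 normalized counts in C3, 117169 and 106664 in 43, and 12211 and 11005 in 53. The other cupin of this kind, BnaC07g46180D, had 7268, 22008 and 3360, so the 3 log2 fold changes in CpFatB4 lay between 1.59 and 1.61. BnaA07g13950D, a cupin like AT2G28490, had 17786 in C3, 37972 in 43 and 8676 in 53, close to the lower limit of the choice in both lines, and BnaC04g15710D, without a description, followed it with 17774, 37525 and 8694.

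The 2 copies of KCS18, which lengthens oleic acid toward erucic acid in the seed, were the only described members from lipid metabolism. BnaA08g11130D had 3133 normalized counts in C3, 18294 in 43 and 1053 in 53, and BnaC03g65980D had 3069, 17889 and 1044. Their log2 fold changes were 2.55 and 2.54 in CpFatB4 and -1.57 and -1.56 in CpFatB5. The copies differed by at most 0.04 on the log2 scale, so that their separate shares of the reads cannot be told apart.

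Among the genes without a description, BnaA09g50780D and BnaC08g43570D were the most abundant after the set of 8 and BnaA01g16230D, with 106006 and 105875 normalized counts in 43 and 8039 and 8001 in 53. BnaC08g43590D, close to the second in number, had 3911 in C3, 17741 in 43 and 1314 in 53. BnaA03g35700D went from 1985 in C3 to 26345 in 43 and 543 in 53, a 48.5-fold distance between the transgenic lines. BnaA03g55570D and BnaC03g02840D had 5304 and 5176 in C3, 20637 and 19934 in 43, and 1806 and 1764 in 53. BnaC09g03710D and BnaA09g04300D had 3194 and 3150 in C3, 19905 and 19648 in 43, and 1516 and 1498 in 53.

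Over the 73 genes the median log2 fold change was 1.64 in CpFatB4, between 1.02 and 4.37, and -1.38 in CpFatB5, between -2.56 and -1.01. All genes over the minimum had medians of -0.26 and -0.45 in the same comparisons, which share C3. Of all genes over the minimum, 7.57% were past the fold upward in CpFatB4 and 12.8% downward in CpFatB5, and nothing is read from these shares, since the choice used them. The genes nearest to a limit inside it were BnaA09g26590D, BnaC01g43040D and BnaA09g15970D, each at 1.02 in CpFatB4, and BnaC01g09900D at -1.01, BnaA09g15970D at -1.02 and BnaC01g43040D at -1.03 in CpFatB5. Just outside stood BnaA05g20440D and BnaC09g16150D, both at 1.00 after rounding, and BnaC02g40130D at 0.99 in CpFatB4, and BnaC06g13860D at -0.99, BnaA05g07770D at -0.99 and BnaC04g06760D at -0.98 in CpFatB5. By mean normalized count of C3 and 53, BnaC08g11400D with 1042, BnaAnng01940D with 1099 and BnaA01g24280D with 1197 were the lowest inside, and BnaC08g30880D with 999, BnaA09g38700D with 995 and BnaA03g46510D with 980 the nearest outside.

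**Figure D2:**
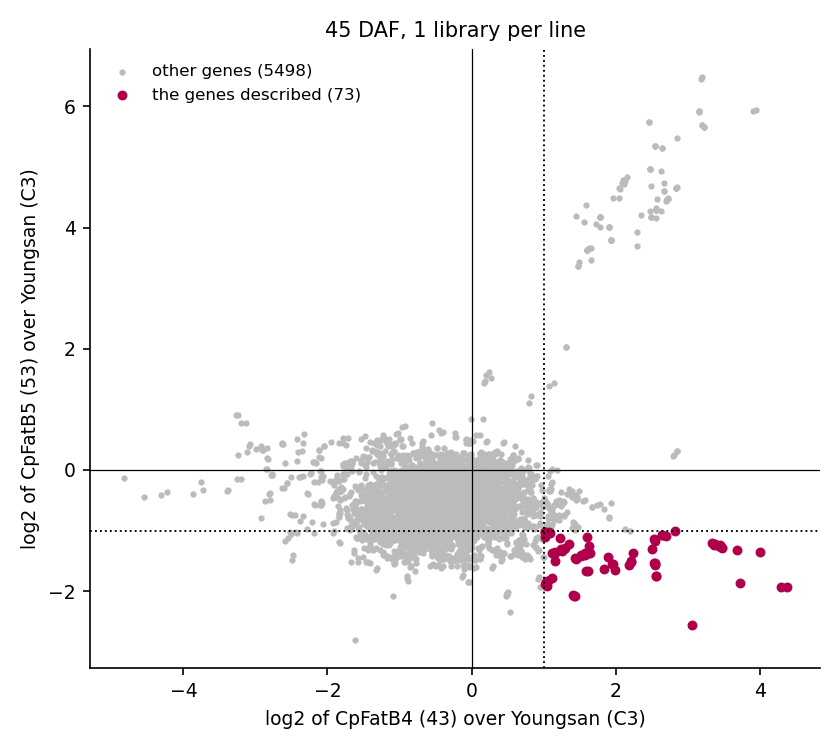
Log2 ratio to Youngsan at 45 DAF of CpFatB4 (horizontal axis) and CpFatB5 (vertical axis) for the 5571 genes over the minimum, with the 73 genes in colour and the limits of the choice dotted. Both axes share library C3, so no relation between them is read, and the 73 genes fill the lower right corner by construction.

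At 25 DAF, in libraries that the choice did not use, the CpFatB5 library was again the lower one. Of the 68 genes over the minimum in that pair, 68 had a lower normalized count in 52 than in C2, against 62.7% of the 6380 genes over the minimum. The median log2 fold change was -0.57, between -2.01 and -0.02, against -0.07 over all genes. The difference was 2-fold or more for 15 of the 68, against 1.11% of all genes. Between the transgenic lines, 22 of 68 genes were at least 2-fold higher in 42 than in 52, against 1.35% of all genes. With 1 library per line there is no test of a single stage. Here and in the counts below, genes of a near-equal set are counted singly, so a count of genes overstates the number of separate profiles. Without the minimum, all 73 genes, and so all 44 profiles, were lower in 52 than in C2. Scaling by the total count left 63 of the 68 below 0, with a median of -0.45, and size factors from abundant genes and TMM scaling left 66 each.

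The CpFatB4 library of 25 DAF differed less. Of 70 genes over the minimum 61 were higher in 42 than in C2, against 57.7% of 6479 genes, with a median log2 fold change of 0.15, between -0.28 and 1.60, against 0.03 over all genes. Only 2 of the 70 reached 2-fold, against 0.278% of all genes, and the 5th and 95th percentiles of all genes were -0.25 and 0.30. With the total count as scale 50 of the 70 were higher and the median was 0.10.

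The globulins had the widest distances at this stage. Cruciferin 3, BnaC01g09900D, had 95609 normalized counts in C2, 276525 in 42 and 26572 in 52. The cupin BnaA08g13680D had 48658, 147641 and 12106. It and cruciferin 3 were the 2 genes over the minimum that were past 2-fold in CpFatB4, at 1.60 and 1.53 on the log2 scale. Cruciferin 2, BnaA10g02240D, had 80968, 131537 and 23257. The order CpFatB4, Youngsan, CpFatB5 thus held for the 3 globulins at both stages.

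The albumin pair BnaC07g40770D and BnaA03g48490D had 18045 and 16980 normalized counts in C2, 29737 and 27952 in 42, and 6962 and 6411 in 52. The 8 genes of the BnaC01g19300D set were close to equal in C2 and 42, with log2 fold changes of 0.02 to 0.13, and lower in 52, with -0.67 to -0.57. BnaC01g19300D itself had 222298 in C2, 242800 in 42 and 145342 in 52. The cupins like AT4G36700 stood within 0.05 to 0.11 in CpFatB4 and between -0.37 and -0.30 in CpFatB5. The KCS18 copies were lower than in Youngsan in both transgenic libraries, by -0.28 in 42 and -0.57 in 52, with 12982, 10708 and 8757 normalized counts for BnaA08g11130D. So KCS18 was above Youngsan in the 45 DAF library of CpFatB4 and not in that of 25 DAF.

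**Figure D3:**
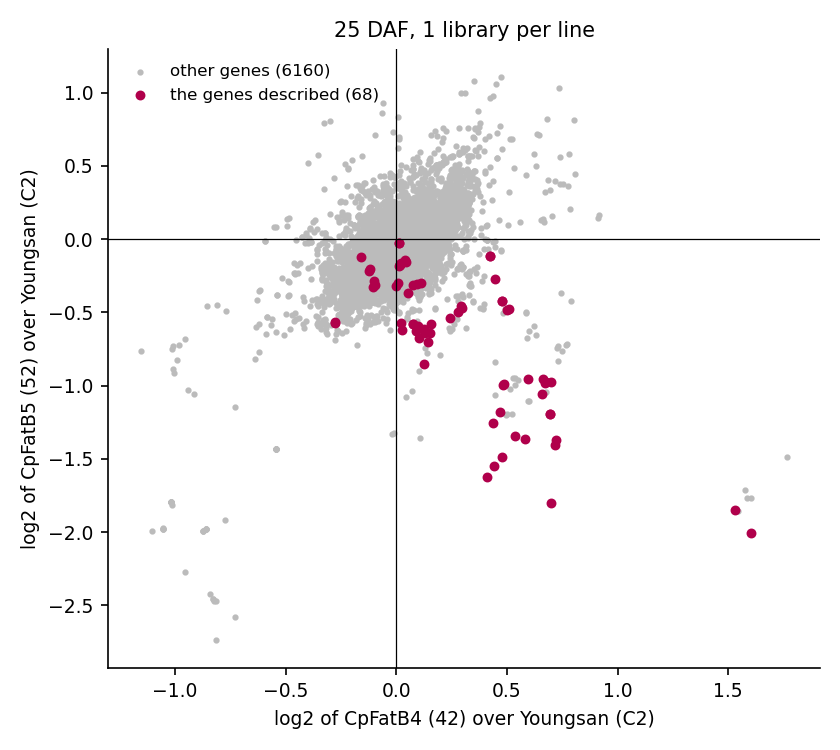
Log2 ratio to Youngsan at 25 DAF of CpFatB4 (horizontal axis) and CpFatB5 (vertical axis) for genes over the minimum in both pairs, with 68 of the 73 genes in colour among 6160 others. The 68 genes all lie below 0 on the vertical axis, and the 2 farthest to the right, at 1.53 and 1.60, are BnaC01g09900D and BnaA08g13680D.

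At 8 DAF the group split into genes that were still low and genes already in use. In C1, 34 genes had under 200 normalized counts, 27 had 200 or more and were at least 2-fold higher in C2, and 12 had 200 or more without such a rise. The share of all genes over the minimum that rose 2-fold from C1 to C2 was 19.2%. Of the low class, 3 genes were under the floor of 3 raw counts in C1, 7 in 41 and 0 in 51, and they were set to that floor.

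The 12 described genes all belonged to the low class and held between 2.2 and 30.8 normalized counts in C1. Cruciferin 3, BnaC01g09900D, had 30.8 in C1, 13.8 in 41 and 123 in 51, from 84, 37 and 273 raw counts. BnaA08g13680D had 15.8, 7.48 and 58, and cruciferin 2, BnaA10g02240D, had 19.1, 13.1 and 54.4. Each of the 3 was therefore highest in CpFatB5 at 8 DAF and lowest in it at 25 DAF, and at 45 DAF by the choice. The albumins BnaC07g40770D and BnaA03g48490D were at 4.77 each in C1 and at 13 and 13.5 in 51. These few counts are not compared further.

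For the genes with at least 1000 normalized counts on average, both transgenic libraries of 8 DAF lay below Youngsan. In 41 against C1, 28 of 32 genes were lower, against 51.9% of 5260 genes, with a median of -0.41 against -0.02 over all genes. In 51 against C1, 25 of 32 were lower, against 46.4% of 5349 genes, with a median of -0.39 against 0.03. At least 2-fold lower were 0 genes in 41 and 2 in 51, against 2.3% and 1.68% of all genes, and 5 in 51 with size factors from abundant genes. These 2 comparisons share C1. CpFatB4 was thus below Youngsan at 8 DAF in 28 genes that stood above it at 45 DAF by the choice.

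A subgroup of 12 genes, none with a description, combined a level of 200 or more in C1 with a log2 fold change of -0.9 or less in 52 against C2, limits that were chosen after the values were seen. It held BnaA08g31350D, BnaA07g24400D, BnaC06g25540D, BnaCnng76930D, BnaA09g08470D, BnaA09g52790D, BnaCnng53320D, BnaA09g26590D, BnaC02g40420D, BnaA03g24520D, BnaAnng35370D and BnaC02g40120D. BnaA08g31350D had 1527 normalized counts in C1, 897 in 41 and 791 in 51, then 6913 in C2, 9636 in 42 and 2461 in 52, then 7280 in C3, 41361 in 43 and 2950 in 53. BnaCnng53320D had 3815, 2332 and 2055 at 8 DAF, 9056, 14409 and 4593 at 25 DAF, and 18995, 38765 and 5278 at 45 DAF. In all 12 genes both transgenic libraries lay below Youngsan at 8 DAF, by -0.96 to -0.61 in 41 and by -1.27 to -0.67 in 51. At 25 DAF the 12 stood between 0.41 and 0.70 in 42. The CpFatB4 library was therefore below Youngsan at 8 DAF and above it at 25 DAF in these genes, while the place of CpFatB5 at 25 DAF was fixed by how they were picked.

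BnaA09g08470D and BnaA09g52790D of this subgroup differed by less than 2-fold between the stages in Youngsan, with 4402 and 4279 normalized counts in C1, 4231 and 4021 in C2, and 5924 and 4995 in C3. In CpFatB5 BnaA09g08470D had 2165, 1867 and 1912 over the 3 stages, and in CpFatB4 it had 2525, 5854 and 21178. The only member of the subgroup with a term was BnaA03g24520D, which the study's table places under hydrolase activity and ribonucleoprotein complex. It had 13575 in C3 and 28009 in 43.

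**Figure D4:**
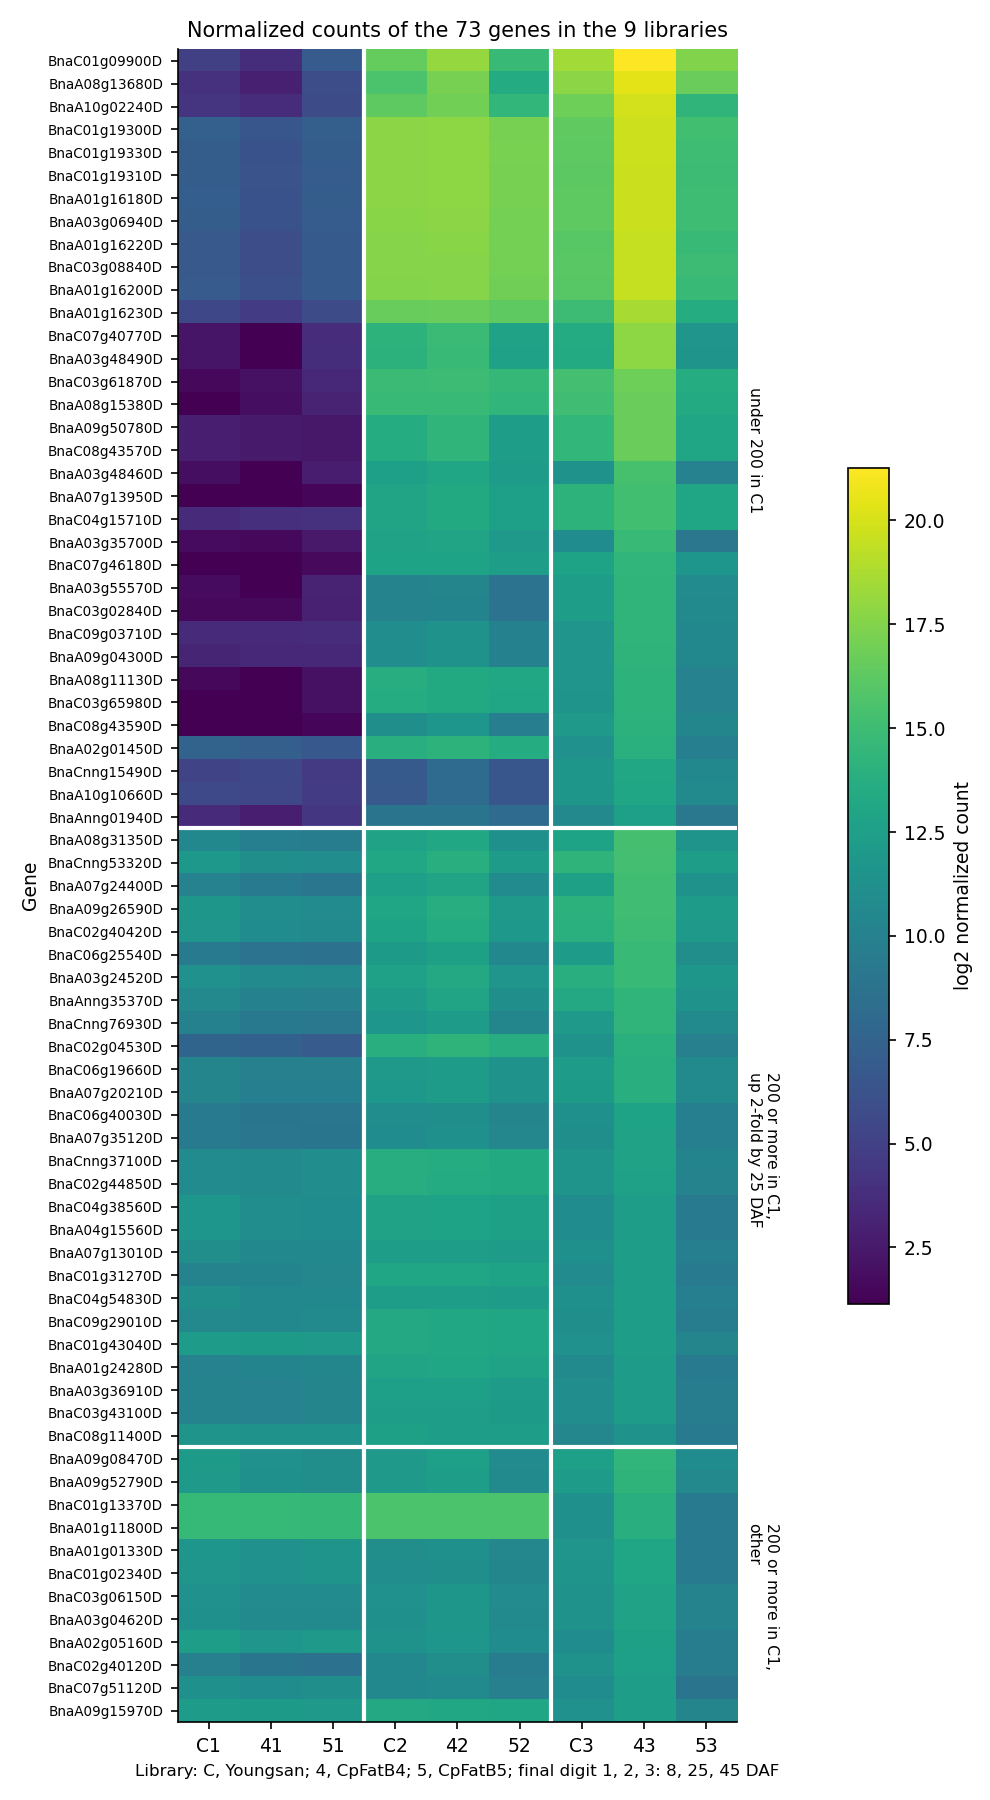
Normalized counts on a log2 colour scale of the 73 genes (rows) in the 9 libraries (columns), in 3 blocks by their level in Youngsan at 8 and 25 DAF. The 34 genes of the upper block have under 200 normalized counts in C1, and column 43 is the brightest of the 3 columns of 45 DAF in every row, by construction.

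A line effect common to 8 and 25 DAF was tested with limma on the 6 libraries of these stages, with the stage as a block and 2 residual degrees of freedom. For CpFatB5, 71 of the 73 genes had a negative coefficient, with a median of -0.47 and a median standard error of 0.27, and 0 passed at an adjusted p under 0.05 (limma's voom, Benjamini-Hochberg over 71567 genes), where 6 genes of the whole table did, all lower, which is 0.00838%. At an unadjusted p under 0.05, 25 of the 73 were lower, against 3.27% of all genes, and 0 higher, against 3.18%. In the 4 other limma fits 15 to 26 were lower at this level and 0 passed adjustment. The lowest adjusted p of the 73 was 0.737 under limma. The strongest were BnaA09g50780D and BnaC08g43570D, at -1.11 and -1.10 with a standard error of 0.25 each. Their unadjusted limma p was 0.00262 and 0.00264. In 51 against C1 they stood at -0.37 each, from only 12 and 19 raw counts. In 52 against C2 they stood at -1.20 and -1.19, so their coefficients are mostly the difference at 25 DAF. BnaA07g24400D followed at -1.35 with a standard error of 0.34. The stages did not act alike in the globulins, whose standard errors reached 0.91. Nor did they in many other genes. In 52 against C2 all 73 were lower, but in 51 against C1 43 were lower and 30 higher. Of the 34 genes low at 8 DAF, 23 were higher in 51 than in C1. Since voom gives low counts less weight, the coefficients of these 34 rest mostly on 25 DAF.

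For CpFatB4 the median coefficient was -0.04, with 33 genes above 0 and 40 below, and 0 of the 73 and 0 of all genes passed under limma at an adjusted p under 0.05. At an unadjusted p under 0.05, 4 genes were higher and 0 lower, against 3.92% and 3.34% of all genes, and the other limma fits gave 1 to 4 with 0 past adjustment. The 4 were BnaA09g50780D and BnaC08g43570D at 0.59 each, and BnaCnng15490D and BnaA10g10660D at 0.96 and 0.85. In 41 against C1 the first 2 stood at -0.22 each, from 16 and 19 raw counts. BnaCnng15490D stood at 0.27 there and BnaA10g10660D at -0.13. A difference of CpFatB4 common to 8 and 25 DAF was thus not detectable in these genes with 6 libraries. The 6 libraries hold 1 pool of RNA each, so that limma's spread is that between stages and lines and not between plants.

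The change from 8 to 25 DAF was tested in the same fit, with the line as a block. Of the 73 genes 65 rose and 4 fell at an adjusted p under 0.05 (limma's voom, Benjamini-Hochberg), against 27.1% and 29% of all genes. Those shares too are over all genes fitted, which were not matched to the 73 in abundance. The median coefficient was 2.63 on the log2 scale against -0.03 over all genes. The globulins BnaC01g09900D, BnaA08g13680D and BnaA10g02240D rose by 11.31, 11.34 and 11.45, and the KCS18 copies BnaA08g11130D and BnaC03g65980D by 12.13 and 12.24 in this fit, in 3 of 3 lines. At 8 DAF the globulins had few counts, 20 to 273 raw. The KCS18 copies had 2 to 9, near the floor, so the sizes for KCS18 depend on the small offset that voom adds and are not bounds. The 4 that fell were BnaA01g01330D and its near-equal partner BnaC01g02340D, at -0.62 and -0.66, BnaC07g51120D at -0.75 and BnaA02g05160D at -0.70. The limma coefficient did not pass for BnaA09g08470D at 0.31, BnaA09g52790D at 0.25, and BnaC03g06150D and BnaA03g04620D at 0.32 and 0.33.

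BnaA01g01330D, listed under hydrolase activity, had 3287 normalized counts in C1, 2562 in 41 and 3036 in 51, then 2167, 2372 and 1387 at 25 DAF, and 3137, 8434 and 746 at 45 DAF. BnaA02g05160D had 5368, 3154 and 4229 at 8 DAF, 2678, 3278 and 1955 at 25 DAF, and 1970, 6067 and 825 at 45 DAF. In both the level of the CpFatB5 library went down at each stage, and that of CpFatB4 was highest at 45 DAF. BnaC03g06150D and BnaA03g04620D were nearly flat in Youngsan, with 2508, 2552 and 2778 for the first, and reached 6794 in 43 and 1134 in 53.

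From 25 to 45 DAF the group did not share a course in Youngsan. There 14 genes were at least 2-fold higher and 31 at least 2-fold lower in C3 than in C2, against 23.4% and 21.1% of all genes over the minimum, and the median change was 0.12. With the total count 9 genes were at least 2-fold higher and the median was 0.00, and with size factors from abundant genes 18 were and it was 0.37. In CpFatB4 50 of 73 were at least 2-fold higher in 43 than in 42 and 2 at least 2-fold lower, against 11.6% and 15.5%. In CpFatB5 4 of 68 were at least 2-fold higher in 53 than in 52 and 34 at least 2-fold lower, against 18.9% and 32.8%. With size factors from abundant genes 14 of the 68 were at least 2-fold higher in 53, and with the total count 10 of 73 were at least 2-fold lower in 43. The choice used C3, 43 and 53, so these counts describe it and are not a further result.

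The 14 genes that went up in Youngsan were those of cruciferin 3 and the cupin BnaA08g13680D, the pairs BnaA07g13950D with BnaC04g15710D, BnaA03g55570D with BnaC03g02840D, and BnaCnng15490D with BnaA10g10660D, the gene BnaAnng01940D, and BnaCnng53320D, BnaA09g26590D, BnaC02g40420D, BnaA03g24520D and BnaAnng35370D of the subgroup of 12. The latest of them were BnaCnng15490D and BnaA10g10660D, with 113 and 108 normalized counts in C2, 286 and 287 in 42, and 91.2 and 90.4 in 52. At 45 DAF they had 3479 and 3620 in C3, 8844 and 8505 in 43, and 1487 and 1666 in 53. All 3 lines gained more than 10-fold, and CpFatB4 was already ahead at 25 DAF, by 1.33 and 1.41 on the log2 scale. BnaAnng01940D had 464, 479 and 292 at 25 DAF and 1605, 5964 and 593 at 45 DAF.

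The 31 genes that went down in Youngsan were at least 2-fold lower in 53 than in 52 as well, 31 of 31, by -6.02 to -1.96 on the log2 scale. In CpFatB4 11 of the 31 were at least 2-fold higher in 43 than in 42, namely the set of 8, BnaA01g16230D, the albumin BnaA03g48460D and BnaA03g35700D, 2 were at least 2-fold lower, and 18 changed by less. In these 18 the difference from Youngsan at 45 DAF stood beside a level in 43 within 2-fold of that in 42. BnaC02g04530D and BnaA02g01450D had 14155 and 13643 normalized counts in C2, 18984 and 18309 in 42, and 13061 and 12592 in 52, and then 2737 and 2576 in C3, 15817 and 15102 in 43, and 939 and 889 in 53. KCS18 was of this kind too, with 10708 in 42 and 18294 in 43 for BnaA08g11130D against 12982 in C2 and 3133 in C3.

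The 2 genes lower in 43 than in 42 were BnaC01g13370D, listed under oxidoreductase activity, and its near-equal copy BnaA01g11800D. BnaA01g11800D had 24896 normalized counts in C1, 25104 in 41 and 23625 in 51, and 48333 in C2, 48792 in 42 and 47527 in 52. The lines stood within 0.08 of Youngsan on the log2 scale at both stages. At 45 DAF the gene had 2483 in C3, 14637 in 43 and 734 in 53. All 3 libraries were below those of 25 DAF, by -4.28 in Youngsan, -1.74 in CpFatB4 and -6.02 in CpFatB5, so that the line with the highest level was the one with the smallest loss.

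Other genes that went down in Youngsan were also close between the lines at 25 DAF. BnaC04g38560D and BnaA04g15560D, the first listed under response to stress, stood at 0.04 in 42 and at -0.16 and -0.14 in 52 against C2, and the second had 2000 normalized counts in C3, 5398 in 43 and 730 in 53. BnaC01g31270D and BnaA01g24280D had 1829 and 1745 in C3, 5244 and 5012 in 43, and 690 and 649 in 53. BnaA07g13010D and BnaC04g54830D had 2424 and 2410, 5346 and 5221, and 927 and 930. BnaA03g36910D and BnaC03g43100D had 2052 and 2037, 4889 and 4811, and 815 and 825. BnaCnng37100D, BnaC02g44850D and BnaC09g29010D had 2987, 2974 and 2330 in C3, 6694, 6622 and 5218 in 43, and 1170, 1150 and 825 in 53. BnaA09g15970D and BnaC01g43040D, the second listed under cell periphery, and BnaC08g11400D, with 1421, 2892 and 663, lay near the limits of the choice.

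The remaining genes were BnaC06g19660D and BnaA07g20210D, with 4627 and 4425 normalized counts in C3, 14377 and 13626 in 43, and 1786 and 1714 in 53, and BnaC06g40030D and BnaA07g35120D, with 2486 and 2348, 7395 and 6986, and 935 and 911. BnaC06g40030D is listed under hydrolase activity. Both pairs were at 0.14 to 0.29 in 42 and at -0.70 to -0.47 in 52 against C2. The first range lay within the 5th and 95th percentiles of all genes, -0.25 and 0.30. The second lay below the 5th percentile of its pair, -0.43. So the lines stood at 25 DAF in the order that the choice fixed at 45 DAF, with a CpFatB4 difference inside the spread of all genes.

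**Figure D5:**
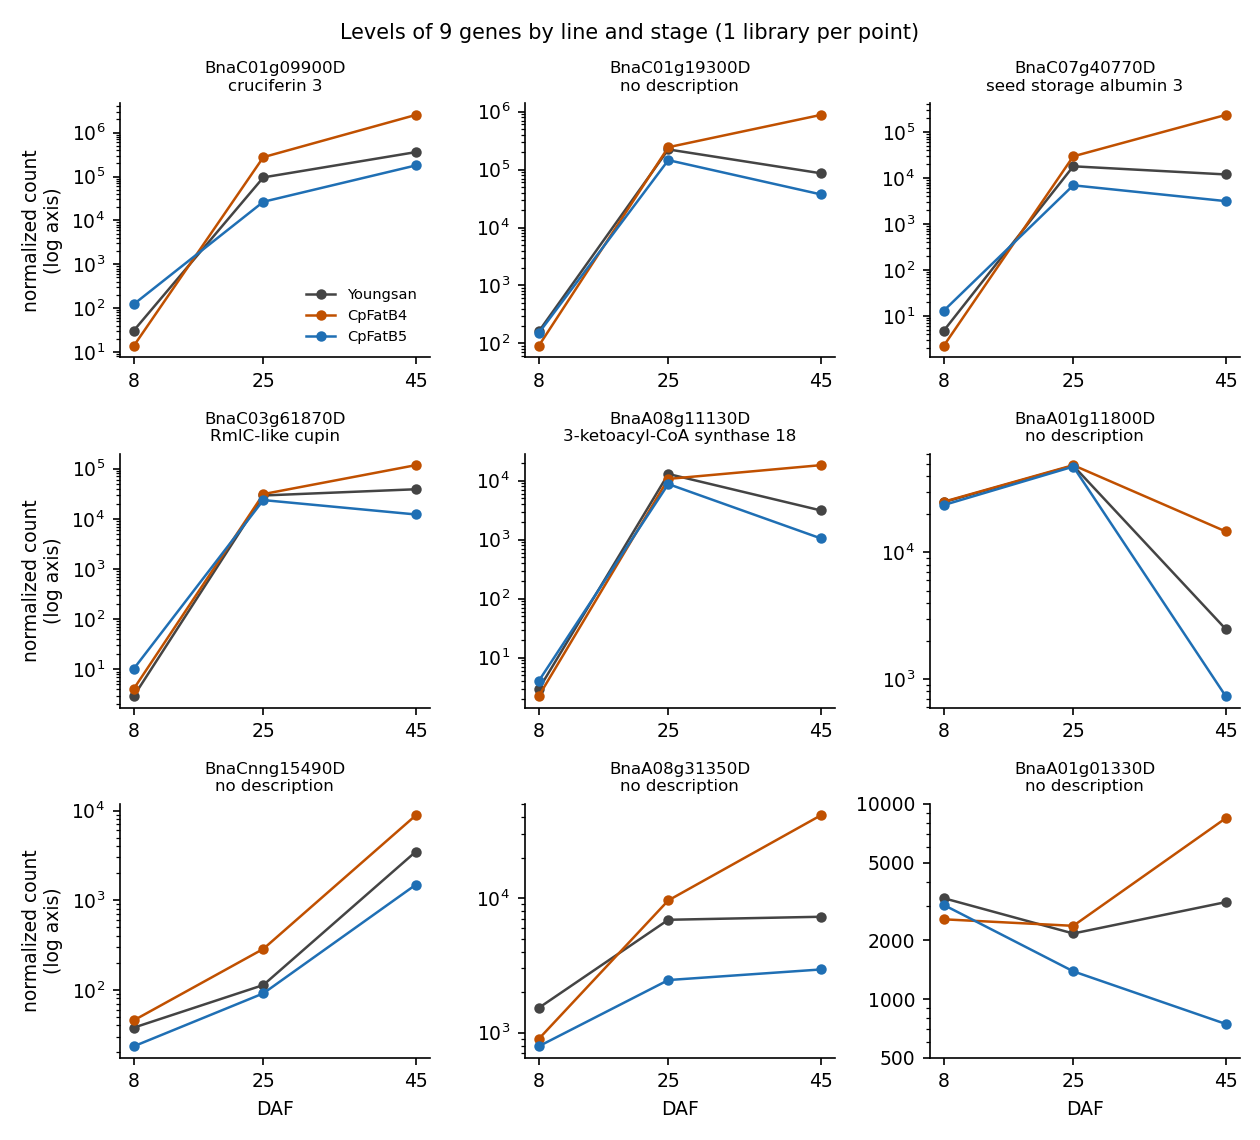
Normalized counts (vertical axes, logarithmic) of 9 of the genes against the stage in DAF, with 1 point per library and 1 line per genotype. BnaC01g09900D parts by line from 25 DAF on, BnaA01g11800D is equal in the 3 lines at 8 and 25 DAF and ends at 2483, 14637 and 734, and BnaCnng15490D gains in all 3 lines.

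Relatives of the described genes did not all meet the choice. Of 9 cruciferins and cupins like AT5G44120 with a description, 9 were at least 2-fold higher in 43 than in C3 and 5 at least 2-fold lower in 53, with medians of 2.70 and -1.01. All genes over the minimum had medians of -0.26 and -0.45, with 7.57% and 12.8% past these folds. The 5 met the choice, as members or as genes left out, so their place was fixed by it. The count of 5 went to 3 with the total count and to 2 with size factors from abundant genes. The 4 that stayed inside 2-fold in CpFatB5 were cupins like AT5G44120, between -0.65 and -0.55, among them BnaA06g36310D with 405958 normalized counts in C3, 1298451 in 43 and 265574 in 53. All 9 were at least 2-fold lower in 52 than in C2, against 1.11% of all genes over the minimum. In 42 against C2, 7 of the 9 were at least 2-fold higher, against 0.278%. The 5 albumins were 5 of 5 past the fold in CpFatB4, or 3 with the total count, and the 3 that had enough counts in the CpFatB5 pair were 3 of 3 past it. Those 3 are members, so the choice fixed their place. BnaA08g14120D and BnaC08g12450D, with 70.5 and 45.9 normalized counts in C3, passed the minimum in the CpFatB4 pair only through 2310 and 2356 in 43. Their place past that fold was thus favoured by the minimum. A further gene like KCS18, BnaC07g45070D, was under the minimum with 106 normalized counts in C3, 575 in 43 and 32 in 53.

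The oil body proteins, which coat storage oil droplets, did not part by 2-fold at 45 DAF. Of the 32 genes over the minimum 0 were 2-fold higher in 43, with a median of 0.19, and of 28 in the other pair 0 were 2-fold lower in 53, with a median of -0.15. All genes over the minimum had medians of -0.26 and -0.45 in these pairs. Of them 7.57% were past the fold upward in 43 and 12.8% downward in 53. That background holds for the lists below. At 25 DAF 21 oil body genes were over the minimum, with medians of 0.50 in 42 and -0.59 in 52, and 5 were at least 2-fold lower in 52. All genes over the minimum had medians of 0.03 and -0.07 there, and 1.11% were 2-fold lower in 52. Of the 27 seed storage markers, oleosins included, 14 of 27 were higher in 43 and 8 of 25 lower in 53, with a summed level of 3120234 normalized counts in C3, 13590334 in 43 and 1937224 in 53, and 6 of the 27 belong to the 73 genes. Those 6 were past both folds by the choice, as were BnaA01g08350D and BnaC05g02160D, cruciferins left out because the study names them. All 8 markers lower in 53 were thus fixed by the choice. The marker medians were 1.67 in 43 and -0.36 in 53, the latter above that of all genes. The 9 genes for FAD2 and FAD3 gave 6 of 7 past the fold in CpFatB4 and 0 of 2 in CpFatB5, and the fatty acid synthase list 10 of 11 and 0 of 1. Of the 13 genes for stearoyl-ACP desaturase, 4 of 7 were higher in 43 and 4 of 5 lower in 53, and size factors from abundant genes left 0 lower in 53. The elongation list gave 4 of 4 and 2 of 2. Its 2 genes past the fold in CpFatB5 were the KCS18 copies, whose place the choice fixed. With the total count the genes past the fold in CpFatB4 went to 3 for FAD2 and FAD3 and to 2 for elongation. Only 1 of the 62 genes of the synthase list was over the minimum in the CpFatB5 pair, so its course in that line is not described. A gene low in C3 could reach the minimum in the CpFatB4 pair through a high level in 43 alone. The minimum thus favoured genes past the fold in 43 in these lists, and nothing is read from their counts there.

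Markers of other cells were compared beside these results. The 2 laccases of the seed coat like AT5G48100 had a summed level of 786 normalized counts in C3, 1970 in 43 and 355 in 53, the same order as the 73 genes, after 16085, 16077 and 17605 at 25 DAF. The 2 senescence-linked cysteine proteases like AT5G45890 had a summed level of 105289 in C2, 68178 in 42 and 69994 in 52, and of 1911 in C3, 1585 in 43 and 1869 in 53, so both transgenic libraries were below Youngsan at 25 DAF. The part of the cells they mark in the differences was not tested, and green pod wall markers could not be listed from the descriptions used here.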

How the data were processed

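RNA-Seq of whole pods gave 9 libraries, 1 per line and stage. The authors trimmed reads with SolexaQA, aligned them with Bowtie2 2.1.0 against the Genoscope coding sequences and deposited 18 raw columns, 2 per library, for 91830 genes. The deposited raw columns hold whole-number counts with a lowest value of 1, and since their digits are grouped by commas the unit is recorded as other. The authors also deposited 13 columns that they had normalized with DESeq and rounded, recorded as a score. Normalized values computed here came within 0.500 of those columns. What the 2 columns stand for is not given in the sources used here. They were averaged. In members reaching 1000 in a library, their log2 ratio had an SD of 0.0222 to 0.0832.

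Size factors were medians of ratios over the 18 columns, and a mean raw count under 3 was set to 3. At 45 DAF no test was possible with 1 library per group. For 8 and 25 DAF the counts of both columns were summed and limma's voom with empirical Bayes was fitted to genes with the equivalent of 10 counts in at least 3 of 6 libraries, with TMM scaling (trims of 30 and 5 percent) written in Python and adjustment by Benjamini and Hochberg at 0.05. The unit of the deposited counts as recorded made limma the test. Both the fold rule and the limma step were tested on simulated data. Intervals are Wilson 95% intervals and cover counting error only. The 73 genes and the lists were chosen with earlier results of these data known. Full values were given to the 10 most abundant genes in 43, the 5 with the largest ratio of 43 to 53, genes in a list, those nearest to a limit, and genes whose copy on the other subgenome is a member. Alternatives were 3 other scalings, other minimums and folds, single columns, no filter and limma trend with a prior count of 3. The tools were limma 3.58.1 in R 4.3.3, and matplotlib 3.10.9, pandas 2.3.3, numpy 2.4.6 and scipy 1.17.1 in Python 3.11.15.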

Additional observations from a re-analysis of the deposited data

How the results depend on the processing

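The number of genes depended on the settings. Of the 73, 44 remained with total count scaling (44 genes in all) and 29 with size factors from abundant genes only (33 in all). TMM scaling gave 83 genes, a minimum on the higher library of each pair 94, the first column 78, the second 75 and a log2 fold of 0.9 104, and each contained the 73. A minimum of 200 gave 247, no minimum 1104 and a log2 fold of 1.5 left 19. In 43 against C3 the median fell from 1.64 to 1.15 with the total count, which moved all genes by -0.49. In 53 against C3 it went from -1.38 to -0.91 with size factors from abundant genes, which moved all genes by 0.47. Of the medians against Youngsan, those that also moved were -0.48 in 41 against C1 and -0.49 in 51 against C1 with size factors from abundant genes, and -0.43 in 51 against C1 and -0.45 in 52 against C2 with the total count. From 25 to 45 DAF the medians were 0.00 to 0.37 in Youngsan, 1.24 to 2.11 in CpFatB4 and -1.22 to -0.35 in CpFatB5 over the 3 other scalings, and from 8 to 25 DAF they were 2.35 to 2.77, 2.47 to 2.91 and 2.08 to 2.37. Under limma the 3 results for the 73 genes kept their counts of 0, 0 and 69 in 4 of 4 alternatives each, and without the filter 19 genes of the table passed for CpFatB5 in place of 6. Of the lists, the total count moved the genes 2-fold higher in 43 from 4 to 2 for acetyl-CoA carboxylase, 6 to 3 for FAD2 and FAD3, 4 to 2 for elongation and 5 to 3 for albumins, and the genes 2-fold lower in 53 from 6 to 0 for beta-oxidation and 5 to 3 for cruciferins and cupins. Size factors from abundant genes moved the latter from 4 to 0 for stearoyl-ACP desaturase, 3 to 0 for TAG (triacylglycerol) assembly, 6 to 0 for beta-oxidation and 5 to 2 for cruciferins and cupins. No paired analysis was possible because the libraries carry no replicate numbers, and the limma fits had the stage or the line as the block. Depth limits the genes under 200 counts at 8 DAF, and library 53, with the fewest counts, had 50 of the 73 genes at 1000 normalized counts or more.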
